A study of Homo sapiens with 32 samples.

Results

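The members described here were 10 genes of the BCL2 family, which sets the threshold for mitochondrial apoptosis. They were chosen by name, with earlier results of these data known, from the 48804 genes of the count table, of which 33132 had at least 1 count. By role they were the pro-survival genes BCL2, BCL2L1 (BCL-XL), MCL1 and BCL2A1, the effector BAX, and the BH3-only genes BCL2L11 (BIM), BBC3 (PUMA), PMAIP1 (NOXA), BMF and BIK. They were read in MDA-MB-468, an established epithelial line of triple-negative breast cancer that carries amplified EGFR. The cells received PBS (control), 0.5 μM salinomycin (Sal, a potassium ionophore), 15 μM dasatinib (Das, an inhibitor of SRC and ABL family kinases) or both drugs together (S + D), each for 24 or 72 h before RNA extraction. Each of the 8 conditions had 4 libraries, which gives 32 libraries of this single line.

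Pro-survival proteins hold the effectors BAX and BAK1 in check at the outer mitochondrial membrane. BH3-only proteins, which respond to growth factor loss, DNA damage, detachment or stress of the endoplasmic reticulum, bind the pro-survival proteins or the effectors directly, and free effectors then open the membrane and release cytochrome c to the caspases. Breast epithelial tumours are known to lean on MCL1 and BCL-XL, and BIM is a well known mediator of death after loss of EGFR or ERK signalling. RNA levels show only part of this balance, because MCL1 protein turns over quickly and BIM, BMF and BAX are also controlled after translation.

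The promoter windows of 2 members are shown because their genes differ in how they responded and in which known letters they hold. BCL2L11 fell with Sal and with S + D at 72 h and has a FOXO motif in this window, a motif bound by factors known to act on it. BAX has several E-boxes, the motif bound by MYC, and no change against control was called for it over all libraries. The numbered libraries called BAX lower with Das at both times and with S + D at 24 h. The motifs were chosen after the members' values were seen, and their part in the responses was not tested. The sequences are from RefSeq (GRCh38.p14), run from 250 bases before to 50 bases after the annotated start, and are written 5′ to 3′ on the strand of the gene. Capitals mark GTAAACA (FOXO) in the first and CACGTG (E-box) in the other, each searched on both strands.
BCL2L11, chr2:111120664-111120963, plus strand: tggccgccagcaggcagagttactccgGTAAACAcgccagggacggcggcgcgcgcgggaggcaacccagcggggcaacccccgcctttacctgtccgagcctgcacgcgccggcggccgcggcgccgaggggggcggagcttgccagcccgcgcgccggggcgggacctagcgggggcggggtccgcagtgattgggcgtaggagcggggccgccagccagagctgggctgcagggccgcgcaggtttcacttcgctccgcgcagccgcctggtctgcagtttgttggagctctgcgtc
BAX, chr19:48954625-48954924, plus strand: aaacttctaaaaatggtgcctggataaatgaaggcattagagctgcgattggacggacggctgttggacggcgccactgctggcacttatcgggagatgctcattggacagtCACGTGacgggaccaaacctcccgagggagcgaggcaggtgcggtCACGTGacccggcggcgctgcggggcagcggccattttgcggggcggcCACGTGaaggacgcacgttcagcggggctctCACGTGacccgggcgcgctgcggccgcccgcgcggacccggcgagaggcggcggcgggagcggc
The FOXO motif of BCL2L11 begins 223 bases before the start, and 3.42% of the 35116 windows in the table hold one. The E-boxes of BAX begin 138, 93, 45 and 14 bases before the start, and 7.26% of all windows hold at least 1. Windows were found for 8 of the 10 members, and the FOXO motif was in no other member's window. An E-box was also in the window of BBC3, as was the AP-1 motif TGANTCA, which 7.71% of all windows hold. These matches describe letters, not binding.

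The libraries held between 25692561 and 42769687 counts. The line's own markers were high, with EGFR between 2793 and 5923 CPM and KRT8, KRT18, EPCAM and CDH1 expressed in every library, and PGR, PTPRC and CD3E were near 0 throughout, at no more than 0.132 CPM. Of the other receptor markers ESR1 was at 3.64 to 12 CPM and ERBB2 at 56.8 to 192 CPM. ERBB2 rose with Das and S + D at 24 h and fell with Sal and S + D at 72 h. Of 6 epithelial and basal markers none rose and 4 fell with S + D at both times, where 16.5% (24 h) and 27.9% (72 h) of all genes fell. KRT8, 1 of the 4, was at 1073 to 1429 CPM in control at 24 h and at 253 to 350 CPM with S + D at 72 h. COL1A1, a collagen gene of fibroblasts, was read at 18.2 to 36.8 CPM in control at 24 h and at 68.1 to 120 CPM with S + D at 72 h, and ALB, a liver gene at no more than 0.778 CPM, also rose with S + D at 24 h (1.75 on the log2 scale, edgeR adjusted p = 0.00141). The part of any of these in the results was not tested. The level of KRT5, the remaining epithelial and basal marker listed, is not given here. PECAM1, listed for other cell types, was not matched in the count table. In every condition 1 library has no replicate number in its label, and the 8 unnumbered libraries deviated together from their groups. BAX, BBC3 and BIK were higher in the unnumbered library than in all 3 numbered ones in 8 of 8 conditions, with median log2 differences of 0.52, 0.89 and 1.04. BCL2 and PMAIP1 were lower in all 8, with medians of -0.55 and -0.26. For BCL2L1 the median was -0.03, for MCL1 0.18, for BCL2L11 -0.12 and for BMF -0.20. Calls of the members are therefore given below with and without these libraries. Values of single genes outside the members are from all libraries.

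**Figure D1:**
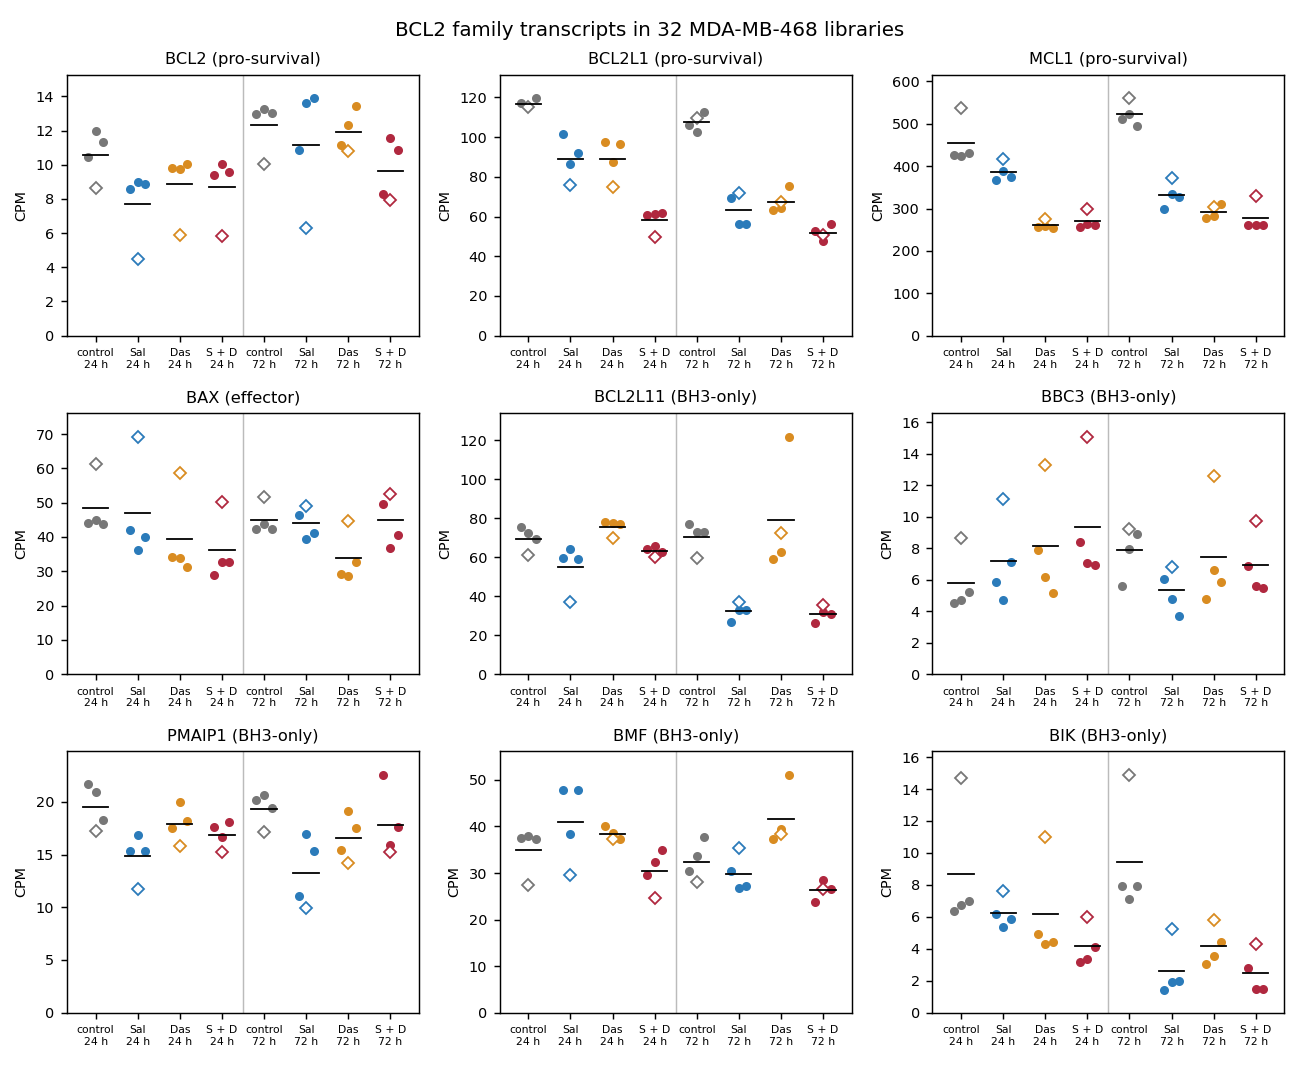
CPM (counts scaled to library size, linear axes from 0) of the 9 members above the filter on low counts in each of the 32 libraries. Filled points are the numbered libraries, open diamonds the unnumbered ones and black bars the means of 4. BCL2L1 and MCL1 with each treatment at 72 h, and BCL2L11 and BIK with Sal and S + D at 72 h, lie wholly below the control libraries, and the open diamonds of BAX, BBC3 and BIK lie above the filled points in all conditions.

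Per kilobase of exon, the scale on which genes can be set side by side, MCL1 was the most abundant member in control cells at 24 h, at 73.0 ± 8.81 CPM per kb (SD, n = 4). BCL2L1 followed at 27.8 ± 0.474 and BAX at 18.7 ± 3.31 CPM per kb. BCL2L11 (10.3 ± 0.925) and PMAIP1 (8.95 ± 0.984) came next, BCL2L11 the higher in each of the 4 libraries, and BIK (9.15 ± 4.21) could not be placed against either beyond its spread. BMF stood at 6.43 ± 0.933. BBC3 and BCL2 were low, at 1.81 ± 0.614 and 0.84 ± 0.115 CPM per kb. BCL2A1, a pro-survival gene best known from blood cells, had 17 counts in all 32 libraries together, at most 2 in 1 library and none in 18 of them, so that 3 counts would stand for at most 0.117 CPM. It was not tested with the others. An exact two-sided permutation test of its 4 against 4 libraries gave p between 0.143 and 1 in the 6 comparisons with control (smallest possible p 0.0286), and no fold is given.

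Over all libraries, every change called among the members against control was a fall, in pro-survival or BH3-only genes. The effector role holds BAX alone. With Sal at 24 h none of the 9 members tested changed at an edgeR adjusted p under 0.01, where 4.55% of all genes tested rose and 2.23% fell (4 had an unadjusted p under 0.05, and DESeq2 called 1). With Das at 24 h 1 of 9 fell, MCL1, against 6.99% of all genes higher and 6.88% lower. With S + D at 24 h 2 of 9 fell, BCL2L1 and MCL1, against 17.1% higher and 16.5% lower. At 72 h Sal lowered 5 of 9 (BCL2L1, MCL1, BCL2L11, PMAIP1 and BIK), Das 2 of 9 (BCL2L1 and MCL1) and S + D 4 of 9 (BCL2L1, MCL1, BCL2L11 and BIK). Over all genes tested, 26.3% rose and 26.8% fell with Sal, 10.5% rose and 9.36% fell with Das, and 27% rose and 27.9% fell with S + D at that time. In bulk RNA such a fall can mean fewer cells that express a gene or less RNA per cell, which cannot be told apart. The median log2 fold change of the 9 members was between -0.59 (Sal at 72 h) and -0.23 (Das at 72 h), while that of all genes tested was between -0.02 and 0.04.

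Without the unnumbered libraries more members passed the test at 24 h. With Sal 5 of 9 then fell (BCL2, BCL2L1, MCL1, BCL2L11 and PMAIP1), against 12.7% of all genes higher and 10.9% lower in the same libraries. With Das 4 of 9 fell (BCL2L1, MCL1, BAX and BIK), against 20.6% higher and 18.7% lower. With S + D 5 fell (BCL2L1, MCL1, BAX, BCL2L11 and BIK) and BBC3 rose, against 28.7% higher and 29.4% lower. At 72 h the 4 calls for S + D were made again (28.4% of all genes higher, 29.5% lower), Das had 4 members lower with BAX and BIK added (11.2% higher, 11.5% lower), and Sal kept 4 of its 5, without PMAIP1 (27.8% higher, 29.6% lower). The count for Sal at 24 h therefore ran from 0 to 5 with the handling of the unnumbered libraries. It was also 5 with all libraries kept and a term for the unnumbered ones, or with the replicate number as a block. The direction of every call that the full set made was kept.

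**Figure D2:**
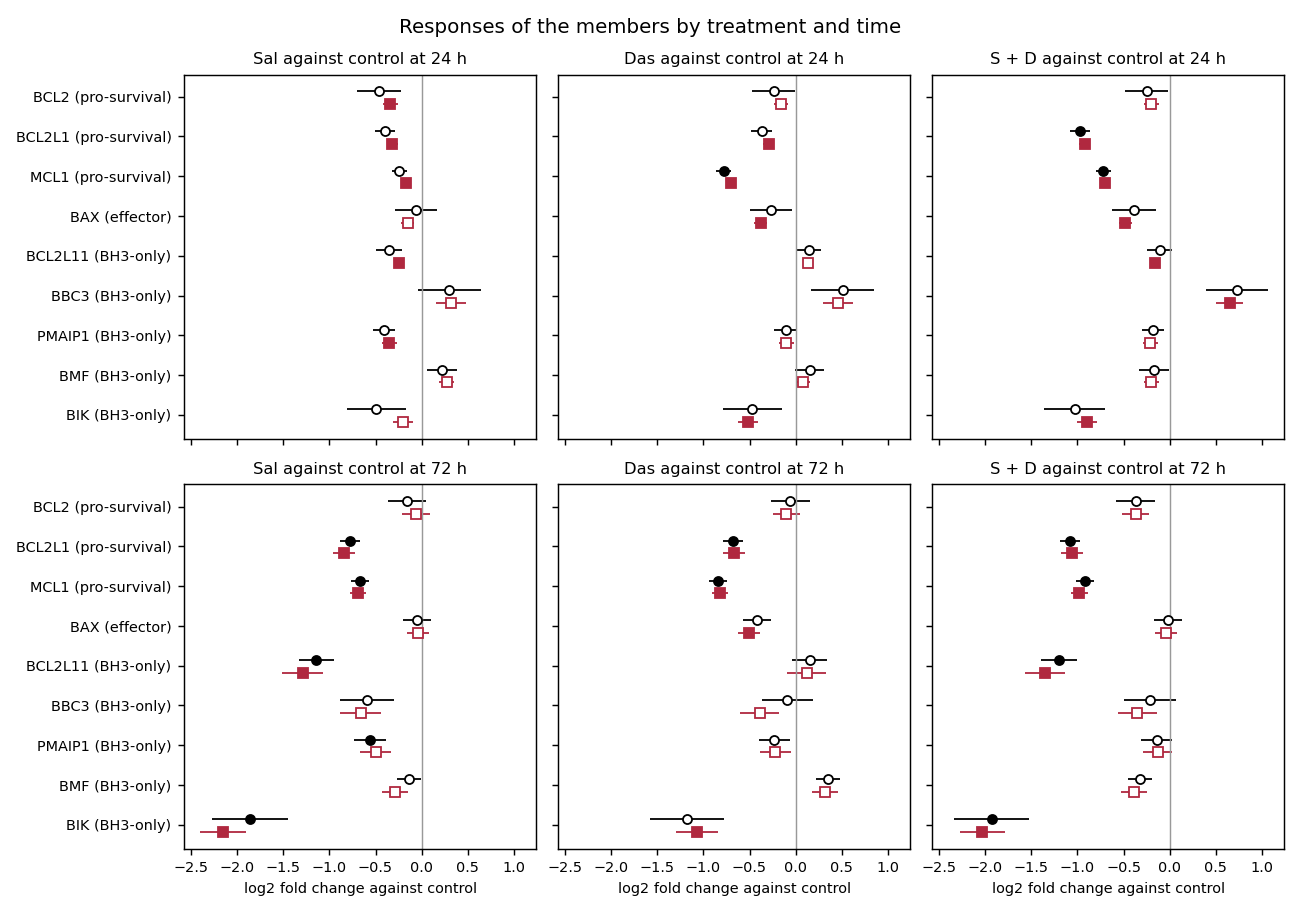
Log2 fold change against control (x axis, bars 1 SE) of the 9 members tested, by treatment and time. Black circles are fits of all 4 libraries of each condition and red squares fits of the 3 numbered ones, filled where the adjusted p was under 0.01. BCL2L1 and MCL1 lie left of 0 in all 6 panels, BIK and BCL2L11 lie farthest left with Sal and S + D at 72 h, and BBC3 lies right of 0 at 24 h.

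BCL2L1 (GRCh37 chromosome 20, 30252255 to 30311792, minus strand) encodes BCL-XL, which restrains BAX, BAK1 and the BH3-only activators. In control it was read at 117, 115.6, 119.6 and 115.2 CPM in replicates 1, 2 and 3 and the unnumbered library at 24 h, and at 106, 102.7, 112.9 and 109.9 CPM at 72 h. With S + D it was read at 61.0, 61.3, 61.7 and 49.6 CPM at 24 h, and at 52.8, 47.5, 56.0 and 50.5 CPM at 72 h. All 8 libraries with S + D lay below all 8 controls. S + D lowered it by a log2 fold change of -0.97 ± 0.11 (SE) at the earlier and -1.08 ± 0.11 at the later time (edgeR adjusted p = 3.45e-06 and 1.75e-07).

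With Sal alone BCL2L1 was at 101.5, 86.3, 92.2 and 75.9 CPM at 24 h and at 69.1, 56.5, 56.4 and 71.7 CPM at 72 h. With Das alone it was at 97.4, 87.5, 96.5 and 74.9 CPM at 24 h and at 63.3, 64.2, 75.3 and 67.2 CPM at 72 h. Neither drug's libraries overlapped the control of their time point. At 72 h both passed the test, and BCL2L1 fell by 0.78 ± 0.11 on the log2 scale for Sal and fell by 0.68 ± 0.11 for Das (edgeR adjusted p = 5.41e-06 and 0.000139). At 24 h the values were -0.40 (adjusted p = 0.0202) and -0.37 (0.0204), and both passed in the numbered libraries, at -0.32 and -0.29 (0.000408 and 0.000484). The counts are per gene, so the long pro-survival and the short pro-death splice forms cannot be told apart, and 41.3% of its exon bases lie opposite the antisense gene ABALON, which the table does not list.

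MCL1 (GRCh37 chromosome 1, 150533371 to 150552214, minus strand) encodes a short-lived pro-survival protein that binds BIM, NOXA and BAK1. In control it was read at 426, 424, 430.4 and 536 CPM at 24 h and at 511, 524, 495 and 560.4 CPM at 72 h. With Das it was at 256, 259, 254 and 276 CPM at 24 h and at 277, 282, 310.4 and 303 CPM at 72 h. These ranges did not overlap, and the fall was 0.78 ± 0.08 on the log2 scale at 24 h and 0.84 ± 0.10 at 72 h (edgeR adjusted p = 7.72e-06 and 1.84e-05). S + D gave 255, 263, 260.5 and 299.7 CPM at 24 h and 262, 262, 262 and 329.5 CPM at 72 h, falls of 0.72 ± 0.08 and 0.92 ± 0.10 (4.61e-06 and 7.39e-07).

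With Sal alone MCL1 was called at 72 h and not at 24 h, and the difference between the times was -0.42 ± 0.13 (edgeR adjusted p = 0.0121). The Sal libraries were at 368, 389, 374 and 417 CPM at 24 h, all under the lowest control, with a log2 fold change of -0.24 ± 0.08 that did not pass (edgeR adjusted p = 0.0639, in the numbered libraries -0.17 and 0.00383). At 72 h they were at 299, 335, 327 and 372 CPM, and the fall was 0.67 ± 0.10 (2.52e-05). Of the exon bases of MCL1, 5.3% are shared with ADAMTSL4 or its antisense gene, which were read at no more than 1.55 CPM on average in any condition.

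BCL2 (GRCh37 chromosome 18, 60790579 to 60987361, minus strand), the founding pro-survival gene, was not called in any comparison. Its libraries ran from 8.63 to 12 CPM in control at 24 h and from 10.0 to 13.3 CPM in control at 72 h. With S + D they ran from 5.86 to 10.1 CPM and from 7.92 to 11.6 CPM, ranges that overlap the controls. For S + D against control the value was -0.25 (95% interval -0.74 to 0.25) at 24 h and -0.37 (-0.81 to 0.07) at 72 h. A fall with Sal at 24 h was called only when the unnumbered libraries were left out, given a term of their own or set apart by the replicate block, at -0.34 ± 0.08 in the numbered ones (edgeR adjusted p = 0.00248) against -0.46 and 0.219 in all 4.

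BAX (GRCh37 chromosome 19, 49458072 to 49465055, plus strand), the effector that forms pores once it is freed, was at 44.1, 44.8, 43.7 and 61.3 CPM in control and 28.8, 32.7, 32.7 and 50.3 CPM with S + D at 24 h. The 3 numbered libraries lay apart and the unnumbered ones bridged them. The log2 fold change was -0.39 ± 0.24 over all libraries (edgeR adjusted p = 0.191) and -0.48 ± 0.07 over the numbered ones (6.32e-06). At 72 h BAX was at 42.3, 43.7, 42.2 and 51.7 CPM in control and 49.7, 36.7, 40.7 and 52.4 CPM with S + D, a log2 fold change of -0.02 with a 95% interval of -0.34 to 0.30. Sal at 72 h gave -0.05 (-0.37 to 0.27). Das at 72 h gave 29.1, 28.7, 32.7 and 44.7 CPM and -0.42 ± 0.15 (0.0416), or -0.51 ± 0.12 in the numbered libraries (0.00525), and leaving out only the unnumbered Das library gave -0.56 (0.0049).

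BCL2L11 (GRCh37 chromosome 2, 111876955 to 111926021, plus strand) encodes BIM, which binds all pro-survival members. It was called with Sal and with S + D at 72 h, and with Das at neither time. In control it was read at 75.3, 72.7, 69.5 and 60.9 CPM at 24 h and at 77.0, 72.8, 72.8 and 59.6 CPM at 72 h. With Sal at 72 h it was at 27.0, 32.7, 32.9 and 36.7 CPM, and with S + D at 26.5, 31.6, 30.7 and 35.2 CPM. All 8 of these libraries lay below the 4 controls, with falls of 1.14 ± 0.19 and 1.20 ± 0.19 on the log2 scale (edgeR adjusted p = 4.9e-05 and 2.79e-05).

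At 24 h BCL2L11 was at 59.7, 64.0, 58.9 and 37.1 CPM with Sal and at 64.1, 65.5, 62.5 and 59.95 CPM with S + D. The unnumbered Sal library lay far below every control, and the numbered libraries of both treatments lay below the numbered controls. The log2 fold changes were -0.35 ± 0.14 and -0.11 ± 0.14 (edgeR adjusted p = 0.104 and 0.543), and -0.24 ± 0.05 and -0.16 ± 0.05 in the numbered libraries (0.00119 and 0.00778). The S + D response was lower at 72 h than at 24 h by 1.04 on the log2 scale (SE 0.24, adjusted p = 0.00151, while 16.3% of all genes were called), and no other member was called over all libraries. The numbered libraries called BCL2L11 (-1.15), BBC3 (-0.97) and BIK (-1.10) lower and BAX (0.47) higher (0.00041, 0.00704, 0.00159 and 0.00826), where 31.5% of all genes were called, and the replicate block called the first 3. The like difference for Sal was -0.78 (0.011), and -1.03 in the numbered libraries (0.000877).

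With Das, BCL2L11 was at 78.0, 77.6, 77.0 and 69.99 CPM at 24 h and at 58.9, 62.4, 121.8 and 72.4 CPM at 72 h. Replicate 3 at 72 h stood well above the others, and BMF was also highest in it. The log2 fold change at 72 h was 0.15 (95% interval -0.24 to 0.55) with that library and -0.12 without it, and neither was called. Of the exon bases of BCL2L11, 10.8% lie opposite MIR4435-2HG, which fell by 0.64 with Das and by 0.98 with S + D at 24 h (adjusted p = 5.44e-05 and 2.81e-07), and by 0.45 with Sal and by 0.93 with Das at 72 h (0.0061 and 7.64e-05). It was at -0.24 with Sal at 24 h (0.0707) and at -0.14 with S + D at 72 h (0.364). Its part in the values of BCL2L11 was not tested.

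BIK (GRCh37 chromosome 22, 43506756 to 43525718, plus strand), a BH3-only protein of the endoplasmic reticulum, had the largest falls of the members. In control it was read at 6.38, 6.75, 6.996 and 14.7 CPM at 24 h and at 7.90, 7.14, 7.92 and 14.9 CPM at 72 h. At 72 h it was at 1.40, 1.89, 1.95 and 5.21 CPM with Sal and at 2.78, 1.49, 1.46 and 4.27 CPM with S + D. All 8 libraries lay below the controls although the unnumbered ones were highest in each group. The falls were 1.86 ± 0.41 and 1.93 ± 0.41 on the log2 scale (edgeR adjusted p = 0.000712 and 0.000486), and 2.15 and 2.03 in the numbered libraries. With the study's added cutoff of an absolute log2 fold change above 1.5, BIK was the only member called, with Sal and with S + D at 72 h.

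With Das BIK was at 4.93, 4.31, 4.41 and 10.98 CPM at 24 h and at 3.02, 3.54, 4.41 and 5.81 CPM at 72 h. The log2 fold changes of -0.47 and -1.18 did not pass over all libraries (edgeR adjusted p = 0.328 and 0.03) and did over the numbered ones, at -0.52 and -1.07 (0.000763 and 0.00286). With S + D at 24 h it was at 3.20, 3.32, 4.13 and 6.01 CPM, below every control, at -1.03 ± 0.33 (0.0175). Leaving out the unnumbered S + D library gave -1.26 (0.00824), and the numbered libraries gave -0.90 ± 0.11 (1.63e-06).

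PMAIP1 (GRCh37 chromosome 18, 57567228 to 57571537, plus strand) encodes NOXA, which binds mainly MCL1. It was at 20.2, 20.6, 19.4 and 17.1 CPM in control at 72 h and at 11.03, 16.9, 15.3 and 9.91 CPM with Sal. The groups did not overlap, and the fall of 0.56 ± 0.17 passed narrowly (edgeR adjusted p = 0.00906). Without replicate 1, 2 or 3 of the control or replicate 1 or the unnumbered library of Sal, it did not (0.0214, 0.0389, 0.0196, 0.0343 and 0.0322), nor in the numbered libraries (0.0157). With S + D at 72 h it was at 22.5, 15.9, 17.7 and 15.2 CPM, a log2 fold change of -0.14 (95% interval -0.50 to 0.23). With Sal at 24 h it was at 15.4, 16.9, 15.3 and 11.8 CPM against 21.7, 20.98, 18.3 and 17.2 CPM in control, at -0.41 (0.0379) over all libraries and -0.35 over the numbered ones (0.00188).

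BMF (GRCh37 chromosome 15, 40380091 to 40401093, minus strand), a BH3-only protein held at the cytoskeleton and tied to death on detachment, was not called against control. Of its exon bases 8.5% lie opposite BMF-AS1, which was at 0 CPM throughout. With Das at 72 h it was at 37.4, 39.4, 51.0 and 38.4 CPM and with S + D at 23.9, 28.5, 26.5 and 26.6 CPM, around a control of 30.4, 33.7, 37.7 and 28.0 CPM. The log2 fold changes were 0.35 ± 0.13 and -0.32 ± 0.13 (edgeR adjusted p = 0.0514 and 0.0469). The difference between S + D and Das was larger than either, as given below. BBC3 (GRCh37 chromosome 19, 47724079 to 47736023, minus strand) encodes PUMA, which binds all pro-survival members. At 24 h it was at 4.51, 4.72, 5.21 and 8.68 CPM in control and at 8.38, 7.09, 6.91 and 15.1 CPM with S + D. The numbered libraries did not overlap, at 0.65 ± 0.15 (0.00118), while all libraries gave 0.73 ± 0.34 (0.0931). S + D at 72 h gave a log2 fold change of -0.21 (95% interval -0.81 to 0.38).

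By role, the share of BH3-only transcripts was higher than control in every library with Das and, per kilobase only, lower in every library with Sal at 72 h. Summed per kilobase, the 5 BH3-only genes made up 23.4% ± 0.734 (SD, n = 4) of the 10 members in control at 24 h. Das gave 30.9% ± 0.839 and S + D 29.5% ± 0.957. The libraries ran from 22.5% to 24.0% in control, from 30% to 32% with Das and from 28.2% to 30.4% with S + D, without overlap with the control. Sal at 24 h ran from 19.9% to 25.1% and overlapped it. At 72 h the share was 22.7% ± 0.443 in control. Sal gave 19.3% ± 1.07, Das 30.2% ± 2.70 and S + D 23.0% ± 0.868, and the S + D libraries from 22.3% to 24.1% overlapped the control from 22.3% to 23.4%. No test was run on these sums.

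The sums themselves show which side moved. The pro-survival genes went from 102 ± 8.47 CPM per kb in control to 63.9 ± 1.13 with Das at 24 h, while the BH3-only genes were at 36.7 ± 2.40 and 35.5 ± 3.23. With S + D at 72 h both sums were lower, at 57.9 ± 5.22 against 111 ± 4.35 CPM per kb for pro-survival and 22.4 ± 2.06 against 37.7 ± 1.87 for BH3-only. BAX alone stood at 17.3 ± 2.86 against 17.4 ± 1.75 CPM per kb in the same comparison, so that its share was 17.7% ± 1.59 with S + D against 10.5% ± 0.542 in control. With Sal at 72 h its share was 15.9% ± 1.35. MCL1 makes up most of the pro-survival sum. Without division by length the BH3-only share was 18.1% in control and 26.8% with Das at 24 h, and 16.9% (15.0% to 18.1%) in control and 15.6% (15.1% to 15.8%) with Sal at 72 h, where the ranges overlapped.

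**Figure D3:**
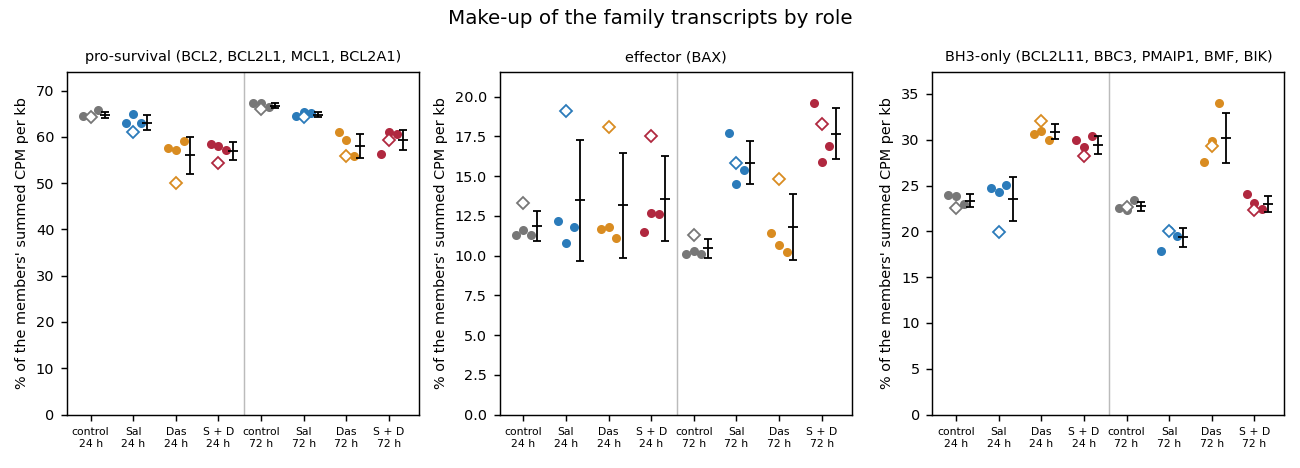
Share of each role in the members' summed CPM per kb (y axis, percent, from 0) in each library. Filled points are numbered and open diamonds unnumbered libraries, and black bars are mean and SD of 4. The BH3-only share with Das lies above 27% in all 8 libraries and that of control below 25%, and the effector share of BAX with Sal and S + D at 72 h lies above 14% and that of control at 72 h below 12%.

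S + D was also compared with each drug alone. At 24 h it lowered BCL2L1 by 0.56 ± 0.11 and MCL1 by 0.48 ± 0.08 on the log2 scale against Sal (edgeR adjusted p = 0.00145 and 0.000687), 2 of 9 members where 12.9% of all genes changed. The numbered libraries called these and BAX (-0.33), BMF (-0.47) and BIK (-0.71) lower (0.000585, 7.8e-05 and 6.66e-05), where 41.4% of all genes were called. Against Das at 24 h it lowered BCL2L1 by 0.59 ± 0.11 (0.00171), 1 of 9 where 8.49% changed, and MCL1 differed by 0.06 (95% interval -0.12 to 0.24). The numbered libraries also called BCL2L11 (-0.30) and BMF (-0.28) lower (0.000117 and 0.00836), where 32.9% were called. At 72 h no member was called against Sal, where 3.01% of all genes were, nor in the numbered libraries, where 4.31% were (over all libraries 3 had an unadjusted p under 0.05, and DESeq2 called 0). The difference was -0.06 (-0.46 to 0.34) for BCL2L11, -0.30 (-0.52 to -0.07) for BCL2L1 and 0.03 (-0.29 to 0.35) for BAX. Against Das at 72 h 3 of 9 fell where 32.1% of all genes changed: BCL2L11 by 1.36 ± 0.19 (2.74e-05), BMF by 0.67 ± 0.13 (0.000683) and BCL2L1 by 0.39 ± 0.11 (0.00547). The BCL2L1 call did not hold without replicate 2, replicate 3 or the unnumbered library of Das, or without replicate 2 or the unnumbered library of S + D (0.0112, 0.0244, 0.0116, 0.0222 and 0.0203). In the numbered libraries BAX was higher with S + D than with Das at 72 h, at 0.47 ± 0.12 (0.00512), and BIK was lower, at -0.96 ± 0.25 (0.00507). BCL2L11 and BMF were called there too and BCL2L1 was not (0.0121), where 36.6% of all genes were called.

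The interaction of Sal and Das, which is 0 where the S + D response equals the sum of the single responses on the log2 scale, was called for no member at either time by edgeR, where 0.0306% of all genes were called at 24 h and 7.52% at 72 h. An unadjusted p under 0.05 was found for 2 members at 24 h and 4 at 72 h, and DESeq2 called 0 and 1. The nearest was MCL1 at 72 h, at 0.59 ± 0.15 (edgeR adjusted p = 0.0111, unadjusted 0.000883), with a DESeq2 adjusted p of 0.000564. Sal and Das alone gave MCL1 falls of 0.67 and 0.84, and both together 0.92. It was also called in the numbered libraries (0.53, adjusted p = 0.00946, where 12.9% of all genes were called) and when the unnumbered Sal library or replicate 3 of Das was left out. At 24 h the numbered libraries called BMF, at -0.55 ± 0.11 (0.00369), where 5.09% of all genes were called.

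Over time, edgeR called no member between the controls of 72 h and 24 h, where 2.76% of all genes were called, and none for the Das response, where 0.226% were. DESeq2 called 0 in both, and an unadjusted p under 0.05 was found for 1 member in the first (MCL1) and 0 in the other. The numbered libraries called MCL1 higher in control at 72 h (0.25, 0.00561), where 11% of all genes were called, and none for the Das response, where 3.56% were. For the Sal response edgeR called no member either, where 21.9% of all genes were called (4 had an unadjusted p under 0.05, and DESeq2 called 2), although the numbered libraries called 6 of 9 lower (BCL2L1, MCL1, BCL2L11, BBC3, BMF and BIK), where 39.3% of all genes were called. For BIK the change of the Sal response from 24 h to 72 h was -1.36 over all libraries (edgeR adjusted p = 0.0541) and -1.94 ± 0.26 over the numbered ones (2.7e-06). For BBC3 it was -0.89 (0.146) and -0.95 (0.00737). The change of the S + D response of BCL2L11, described above, was called with every library left out in turn.

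Around the members, genes of the same pathway moved in both directions, as did all genes, of which 27% rose and 27.9% fell with S + D at 72 h. Of the other BCL2 family, 5 of 12 rose and 3 fell with S + D at 72 h. HRK, a BH3-only gene that binds BCL-XL, rose by 0.89 ± 0.15, and BNIP3, which marks mitochondria for removal, rose by 1.30 ± 0.16 (edgeR adjusted p = 6.46e-05 and 1.44e-06). BID, the BH3-only link from death receptors to mitochondria, fell by 1.98 ± 0.28, and BOK fell by 1.20 ± 0.14 (8.67e-06 and 1.15e-06). With Das at 24 h HRK was the only 1 of 13 called over all libraries, up by 1.15 ± 0.15 (4.47e-05). Of all genes, 6.99% rose and 6.88% fell. The numbered libraries called 1 of 13 higher and 2 lower with Das at 24 h, where 20.6% of all genes rose and 18.7% fell. With S + D at 72 h they gave 5 higher and 3 lower. With Sal alone at 72 h, over all libraries, 5 of 12 rose and 4 fell, where 26.3% and 26.8% of all genes did. S + D against Sal at 72 h called 0 of 12, where 3.01% of all genes were called.

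Downstream of the mitochondria, 4 of 16 caspase, apoptosome and inhibitor genes rose, near the share of all genes, and 6 fell with S + D at 72 h. DIABLO, which counters the inhibitors of apoptosis, rose by 2.24 ± 0.21, from 4.53 ± 0.640 to 21.7 ± 3.13 CPM, and CYCS, cytochrome c, rose by 1.62 ± 0.17 (edgeR adjusted p = 9.96e-08 and 2.52e-07). Of the exon bases of DIABLO, 18.8% are shared with other genes of the count table, whose part in its values was not tested. BIRC5 (survivin), also a gene of dividing cells, fell by 3.36 ± 0.41, and BIRC3 fell by 1.76 ± 0.14 (1.6e-06 and 2.05e-08). With Das at 72 h the values were 1.00 for DIABLO, 0.41 for CYCS, -0.81 for BIRC5 and -1.52 for BIRC3, of which the first and the last passed. With Sal alone at 72 h 6 of the 16 rose and 4 fell, where 26.3% and 26.8% of all genes did. S + D against Sal at 72 h called 0 of the 16, where 3.01% of all genes were called. The numbered libraries gave 4 higher and 7 lower with S + D at 72 h. Of 11 death receptor genes 1 rose and 6 fell with S + D at 72 h, where 27% of all genes rose and 27.9% fell. The decoy receptor TNFRSF10C rose by 3.49 ± 0.38, and FAS and the TRAIL gene TNFSF10 fell by 2.5 ± 0.39 and 2.60 ± 0.24 (4.99e-07, 2.17e-05 and 8.4e-08). Of the 11 death receptor genes, 1 rose and 5 fell with Sal alone at 72 h, and S + D against Sal called 0. The numbered libraries gave 2 higher and 7 lower with S + D at 72 h, where 28.4% of all genes rose and 29.5% fell.

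Among regulators, the factors ATF4 and CHOP act on BIM, PUMA and NOXA in other cells. The list of 9 stress genes holds both of them and genes of the same response that need not act on the family. With S + D 8 of 9 rose at 24 h and 6 of 9 at 72 h, for Das the counts were 5 and 2, for Sal 1 and 4, and none fell. The shares of all genes that rose were 17.1% and 27% for S + D, 6.99% and 10.5% for Das and 4.55% and 26.3% for Sal. The numbered libraries gave 9 and 6 for S + D, where 1 fell at 72 h. For each drug alone they gave 8 and 4. Over all libraries, S + D against Sal called 1 of 9 higher at 24 h and 0 at 72 h, where 12.9% and 3.01% of all genes were called. DDIT3 (CHOP) rose by 3.95 ± 0.36 with S + D at 72 h, from 12.2 ± 3.48 to 191 ± 33.4 CPM, and ATF3 by 3.34 ± 0.34 (edgeR adjusted p = 8.31e-08 and 2.49e-07). Of the exon bases of DDIT3, 31.6% lie opposite MARS1 or MBD6, whose part in its values was not tested.

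Of 12 transcription factors known to act on the family, 3 rose and 7 fell with S + D at 72 h, where 27% of all genes rose and 27.9% fell. MYC fell by 2.36 ± 0.18 and E2F1 by 2.90 ± 0.39, while FOXO3 rose by 0.76 ± 0.11 and JUN by 1.72 ± 0.22 (edgeR adjusted p = 1.76e-08, 4.6e-06, 1.68e-05 and 2.87e-06). FOXO3 was at 75.5 ± 1.85 CPM in control and 129 ± 14 CPM with S + D at 72 h, while BCL2L11, whose window holds the FOXO motif shown above, was at 70.6 ± 7.57 and 31.0 ± 3.6 CPM. A link between FOXO3 and BCL2L11 was not tested. With Sal alone at 72 h 4 of the 12 factors rose and 7 fell, where 26.3% of all genes rose and 26.8% fell. S + D against Sal at 72 h called 1 higher and 0 lower, where 3.01% of all genes were called. The numbered libraries gave 3 of 11 higher and 7 lower with S + D at 72 h. Of 4 genes of MCL1 protein turnover, BTRC was called with S + D, at 0.42 at 24 h and 0.66 at 72 h (0.00149 and 0.000142). With Sal at 72 h 1 of the 4 was called higher, where 26.3% of all genes rose.

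**Figure D4:**
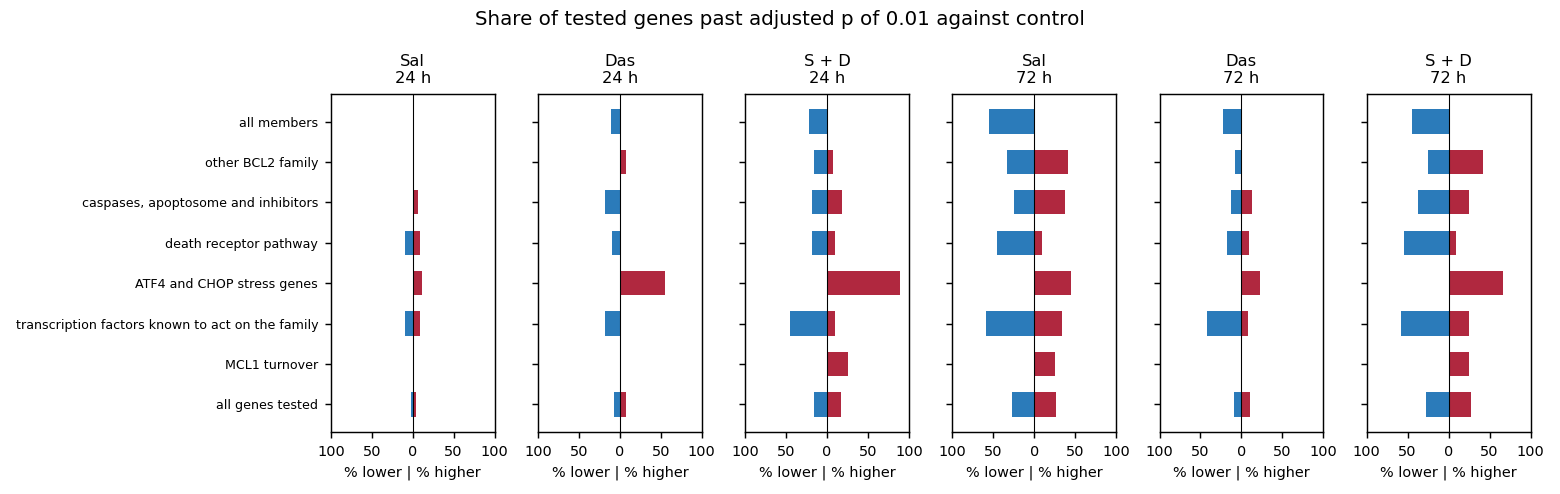
Share of the tested genes of each list that were lower (blue, left) or higher (red, right) than control at an adjusted p under 0.01, with the share of all genes tested in the bottom row. The members have bars to the left and none to the right, and the ATF4 and CHOP stress genes have bars to the right and none to the left, in every comparison in which any of them was called.

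Over the 8 conditions, the genes whose centred mean log2 CPM lay nearest to a member, among 17227 genes, were MTHFD1 and DTX2 for BCL2L1 (root mean square differences of 0.059 and 0.08) and HK1 and GPR37L1 for MCL1 (0.077 and 0.08). For BCL2L11 they were KLF12 and HMGN5 (0.077 and 0.085), and for BAX, which varied little, MIER2 and ATP5F1D (0.049 for both). For BIK, with the widest range of the members at 1.97 on the log2 scale, they were NOTCH3 and BID (0.066 and 0.067). BCL2 (E2F5 and DYRK2), BBC3 (ENSG00000267277 and ZSCAN26), PMAIP1 (LYSMD2 and UBAP1) and BMF (ABCB10 and SLC35E3) had nearest genes at 0.067 to 0.11.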

How the data were processed

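RNA was taken from MDA-MB-468 cells and sequenced in 32 libraries, 4 biological replicates for each of 4 treatments at 2 times. The authors prepared TruSeq libraries, sequenced single-end reads on a HiSeq4000 and aligned them to GRCh37 with STAR 2.5.2. Per the labels, bcl2fastq 2.19, Cufflinks 2.1.1 and DESeq2 were also used. The deposited table gives, for each Ensembl gene and library, the authors' raw read counts, which are whole and not normalized. The counting program, its annotation and its use of strand are not given in the sources used here. Reads shared with an overlapping or antisense gene could therefore not be told apart.

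Tests used edgeR 4.0.16 under R 4.3.3 (TMM, filterByExpr with a minimum count of 10, quasi-likelihood test, Benjamini-Hochberg adjustment over all genes tested). A model per time held its 16 libraries (16357 genes at 24 h, 16682 at 72 h), and all 32 (17227 genes) for comparisons of times. A change was called at an adjusted p under 0.01. Intervals are 95% intervals of the log2 fold change. Levels are CPM with TMM factors, per kilobase of the union of annotated exons where genes were compared. Symbols and coordinates came from an annotation that matched 46537 of 48804 identifiers. Library totals ran from 25692561 to 42769687 counts. The procedure was run on simulated counts in which libraries varied independently. They held no shared shift of the unnumbered libraries, so they do not cover the effect of such a shift on the calls.

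All members were named. From each list described, up to 2 called genes with the highest and 2 with the lowest log2 fold change for S + D against control at 72 h were named. The genes most like each member were the 2 with the smallest root mean square difference. The members and lists were chosen with earlier results of these data known, and the 3 promoter motifs after the members' values were seen. Alternatives were RLE factors, no filter, the replicate number as a block, only the groups compared, all 32 libraries, DESeq2 1.42.0, the numbered libraries only, a term for the unnumbered ones, other cutoffs, and each library left out. Whether the replicate numbers pair libraries was checked by correlating deviations from group means. Among the numbered libraries, correlations of same-numbered pairs ran from -0.08 to 0.099 (24 h) and from -0.2 to 0.077 (72 h), so the numbers 1 to 3 did not pair them. The unnumbered libraries correlated with each other between 0.59 and 0.67, and between 0.52 and 0.61. Results for 1 gene and 1 list are not reported here.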

Additional observations from a re-analysis of the deposited data

Results flagged for a closer look

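In 16 of 72 groups of 4 libraries (9 members in 8 conditions), 1 library stood apart from its group by Dixon's ratio. Chance flags about 1 in 20 independent groups, but the 9 members were read in the same libraries, so these groups are not independent. In all 16 it was the unnumbered library. For BCL2 it was low, at 4.48 CPM with Sal, 5.88 CPM with Das and 5.86 CPM with S + D at 24 h, and at 10.0 CPM in control at 72 h, under 13 to 13.3 CPM in the other 3. For BCL2L1 it was low with S + D at 24 h, at 49.6 CPM against 61.0 to 61.7 CPM. MCL1 was high at 536 CPM in control at 24 h and at 330 CPM with S + D at 72 h, against 262 CPM in the other 3. BAX was high at 61.3 CPM in control and 58.7 CPM with Das at 24 h, and at 51.7 CPM in control at 72 h. BCL2L11 was low at 37.1 CPM with Sal and 70 CPM with Das at 24 h, and BMF was low at 27.4 CPM in control at 24 h. BIK was high at 14.7 CPM in control and 11 CPM with Das at 24 h, and at 14.9 CPM in control at 72 h, against 7.14 to 7.92 CPM in the other 3. What sets these libraries apart was not tested beyond the fits without them.

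The response of BCL2L11 to S + D differed between the times by -1.04 on the log2 scale, tested as a difference of responses (edgeR adjusted p = 0.00151).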

How the results depend on the processing

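Every member called over all libraries kept its direction under every alternative run. The replicate number as a block changed counts at 24 h to 5 members (Sal), 4 (Das), 5 (S + D) and 5 (S + D against Sal). In this fit BBC3 was called higher with Das and with S + D at 24 h. At 72 h the block gave 4 (Das), 5 (S + D against Das) and 1 (interaction), and for changes of a response over time 4 (Sal) and 3 (S + D). The numbers did not pair the libraries, and in this block the unnumbered ones form a level of their own. A term for these gave 5, 5, 5 and 5 in the same comparisons at 24 h and 2 against Das. At 72 h it gave 4, 5 and 2, and over time 4 and 3. The numbered libraries gave 5, 4, 6 and 5 at 24 h, 3 against Das and 1 for the interaction. At 72 h they gave 4 with Das and 1 for the interaction, and over time 1 (control), 6 (Sal) and 4 (S + D).

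DESeq2 gave 1 (Sal) and 2 (Das) at 24 h, 1 for the interaction at 72 h and 2 for the change of the Sal response. RLE factors gave 1 for that interaction. All 32 libraries in 1 model gave 2 with Das at 24 h and 1 for the interaction at 72 h. Only the groups compared gave 1 for S + D against Sal at 24 h. An adjusted p under 0.05 gave 2 (Sal) and 2 (Das) at 24 h and 4 (Das) at 72 h. A log2 change above 1.5 left 0 with Das and 0 with S + D at 24 h, and 1 (Sal), 0 (Das) and 1 (S + D) at 72 h. Leaving out each library in turn gave 0 to 1 for the interaction at 72 h (1 without the unnumbered Sal library or Das replicate 3) and 0 to 3 for the change of the Sal response (3 without the unnumbered Sal library of 72 h, and 1 without that of 24 h or either unnumbered control).

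Signs changed for no called value. Against control, without a filter, BAX with S + D at 72 h was at 0.02. With each library left out, BAX ran from -0.29 to 0.09 with Sal at 24 h, from -0.10 to 0.02 with Sal at 72 h and from -0.07 to 0.07 with S + D at 72 h. BCL2 ran from -0.29 to 0.04 with Sal and from -0.15 to 0.00 with Das at 72 h, BCL2L11 from -0.12 to 0.29 and BBC3 from -0.45 to 0.10 with Das at 72 h. In the other comparisons, leaving out 1 library changed the sign of 22 of 90 values, which lay between -0.21 and 0.22 and were not called. The cause of these shifts was not tested. With 4 libraries a group, a fold change near 0 that was not called is limited by its interval, and BCL2A1 by its counts.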

Other observations

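Other genes of the pathway, picked after their values were seen, add to the members. BAK1, the effector that acts beside BAX, was at 32.8 ± 2.34 CPM in control and 43.6 ± 5.05 CPM with S + D at 72 h (SD, n = 4), a log2 fold change of 0.39 ± 0.14 that was not called (edgeR adjusted p = 0.0207). BCL2L2 (BCL-W), a pro-survival gene that is not among the members, rose by 0.67 ± 0.11 with Sal and 0.50 ± 0.11 with S + D at 72 h (4.52e-05 and 0.000658), while BCL2L1 and MCL1 fell in the same libraries. Of the exon bases of BCL2L2, 23.3% are shared with PPP1R3E or BCL2L2-PABPN1, whose part in its values was not tested. CASP9, the caspase of the apoptosome, rose with all 3 treatments at 72 h, by 1.17, 0.46 and 1.11 with Sal, Das and S + D (4.54e-07, 0.0087 and 6.47e-07). CFLAR, an inhibitor of caspase-8, fell by 1.03 with Sal and by 1.25 with S + D at 72 h (1.4e-05 and 1.63e-06) and was at 0.09 with Das (0.666). Over all libraries STAT3, a factor known to act on MCL1 and BCL2L1, fell by 0.63 with Das and by 0.68 with S + D at 24 h (4.88e-05 and 7.47e-06). It was at -0.22 with Sal (0.0904). Of the 11 listed factors tested with Sal at 24 h, 1 was called lower over all libraries and 6 in the numbered ones. The shares of all genes that fell were 2.23% and 10.9%.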
